A study of Vitis vinifera with 66 samples.

Results

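The data described here are the harvest berries of Sauvignon Blanc grapevines that had all been flooded in spring and that differed in the summer treatment, and with it in the tunnel they stood in. They comprise 6 of the 66 libraries of the study, the 3 libraries of FH and the 3 of F at T5, chosen by their labels and by no measured value. FH vines were flooded at budbreak, then kept at 30% of field capacity in summer, with the thermostat set 5 °C higher for about 1 week. By day the air measured in the paper was warmer by less than this setting. F vines were flooded at budbreak and had neither the drought nor the heat. Both groups were at harvest (T5), 28 days after the first sampling (T0), 13 days after the sampling at the end of the heatwave (T3) and 4 days after the sampling that followed the recovery (T4). Vines that were never flooded, with the summer stress (H) or without it (C), are used for comparison. All vines grew in pots. The paper kept the berries of each sampled vine apart as a replicate. Each library was taken to be 1 such vine, out of a larger number sampled per treatment. The vines with and without the summer stress stood in different tunnels, so that effects of the tunnel and of the stress cannot be told apart.

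Waterlogged soil deprives roots of oxygen, and drought followed by heat limits water and carbon supply while berries are filling with sugar. The grape is a non-climacteric fruit, in which abscisic acid promotes ripening, auxin delays it, and sugars such as those of the raffinose family and trehalose act in osmotic protection and signaling. During ripening berries soften, lose acids and accumulate sugars, and this goes with large changes in transcript abundance. FH over F at T5 asks what is left in the berry transcriptome at harvest of a stress that ended earlier in the season.

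Total counts were between 21058201 and 21891242 in the FH libraries and between 21317146 and 22889628 in the F libraries. The distance between replicates was taken as the chi-square of their counts over genes, divided by its degrees of freedom. In FH it was 24.6 between replicates 1 and 3, but 76.3 and 71.3 between replicate 2 and these, so that FH replicate 2 stood apart. In F it was only 1.87 between replicates 1 and 2, against 18.6 and 20.6 for the other pairs and 8.95 for the next closest pair of replicates in the series. These F libraries differed by more than counting noise alone, which does not show that they came from different vines. They were kept as separate replicates, and counts of genes are also given with both summed as 1 library and without FH replicate 2. The sources used here annotate no marker genes of berry tissues, so the tissue label was not checked. The table of counts does not pair its gene IDs with names, and 0 of the 29591 reference rows hold one of them. Names are therefore given only to genes that the study names by ID, and IDs beginning with VIT_00s lie on no assigned chromosome.

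The difference between FH and F at harvest was wide and of moderate size. Of 19625 genes tested, 1374 were higher (7%) and 1269 were lower (6.47%) in FH than in F, with an adjusted p under 0.05 and a fold of at least 1.5 (edgeR, quasi-likelihood test, Benjamini-Hochberg). Such genes are called differentially expressed genes (DEGs) below. The median change was 0.80 on the log2 scale among the higher genes and -0.87 among the lower ones, against 0.04 over all genes tested. A change of at least 2-fold was found in 341 of the higher and in 433 of the lower DEGs, and one of at least 4-fold in 43 and 51. The FH libraries all lay above the F libraries in 1324 of the 1374 higher DEGs, against 23.6% of all genes tested. They all lay below in 1254 of the 1269 lower DEGs, against 19.9% of all genes tested. In RNA of whole berries, fewer cells of a type and less RNA per cell cannot be told apart.

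FH replicate 2 carried much of this count. Without it, 573 genes were higher and 476 were lower. With F replicates 1 and 2 summed, 1059 were higher and 1080 were lower. When the test itself was made against a fold of 1.5 rather than against no change, 27 genes passed, 6 higher and 21 lower, so that few single genes were shown to exceed that fold.

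The lower DEGs held a larger part of the reads than the higher ones in F, but not in FH on average. They took 9.24, 6.15 and 10.2% of the counts of the FH libraries, against 15.4, 15.0 and 15.8% in the F libraries. The higher DEGs took 9.46, 11.6 and 8.28% of the counts in FH, against 5.28, 5.46 and 5.11% in F. FH replicate 2 had the highest of these shares for the higher DEGs and the lowest for the lower DEGs, and in both sets the groups did not overlap, which the choice of the genes fixes. Among genes with a mean of 100 or more CPM (counts scaled to a common library size with TMM factors) over both groups, 17.5% were lower and 6.71% were higher in FH. Among genes between 5 and 20 CPM, 4.96% were lower and 11.5% were higher.

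The primers of the qPCR assays of the study are the only oligos available for genes that were called here, and they are shown for the pair of qPCR genes that passed the test, a reference gene and a target gene, because the change of a reference gene bears on any value scaled by it. The study scaled its qPCR values by 5 reference genes together and chose its targets mainly from the contrasts at T3. At T3 this reference gene was not called in FH over F (log2 0.70, adjusted p = 0.58, edgeR). The primers are in lower case throughout, 5′ to 3′, as ordered oligos, with no base set apart.
VIT_17s0000g05580 forward: cataatatgtacagcgagcgtctcc
VIT_17s0000g05580 reverse: tgtctactcgccgacttcactag
VIT_08s0040g01230 forward: gatgaagggtatgtatggagaggct
VIT_08s0040g01230 reverse: ggctcctctgtactcaaacaagaac

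The study annotates 122 genes by ID, in lists of hormone, osmoprotectant and stress genes, of network members and of qPCR genes. Of these, 115 were tested, 2 were higher and 5 were lower in FH than in F, which is 6.09% called against 13.5% of all genes tested. Their median log2 change was 0.08, against 0.04 over all genes tested. The study chose many of these genes on these same samples, so that their counts are not independent evidence. Without FH replicate 2, 2 of the listed genes were higher and 2 were lower, and with F replicates 1 and 2 summed 2 were higher and 4 were lower.

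**Figure D1:**
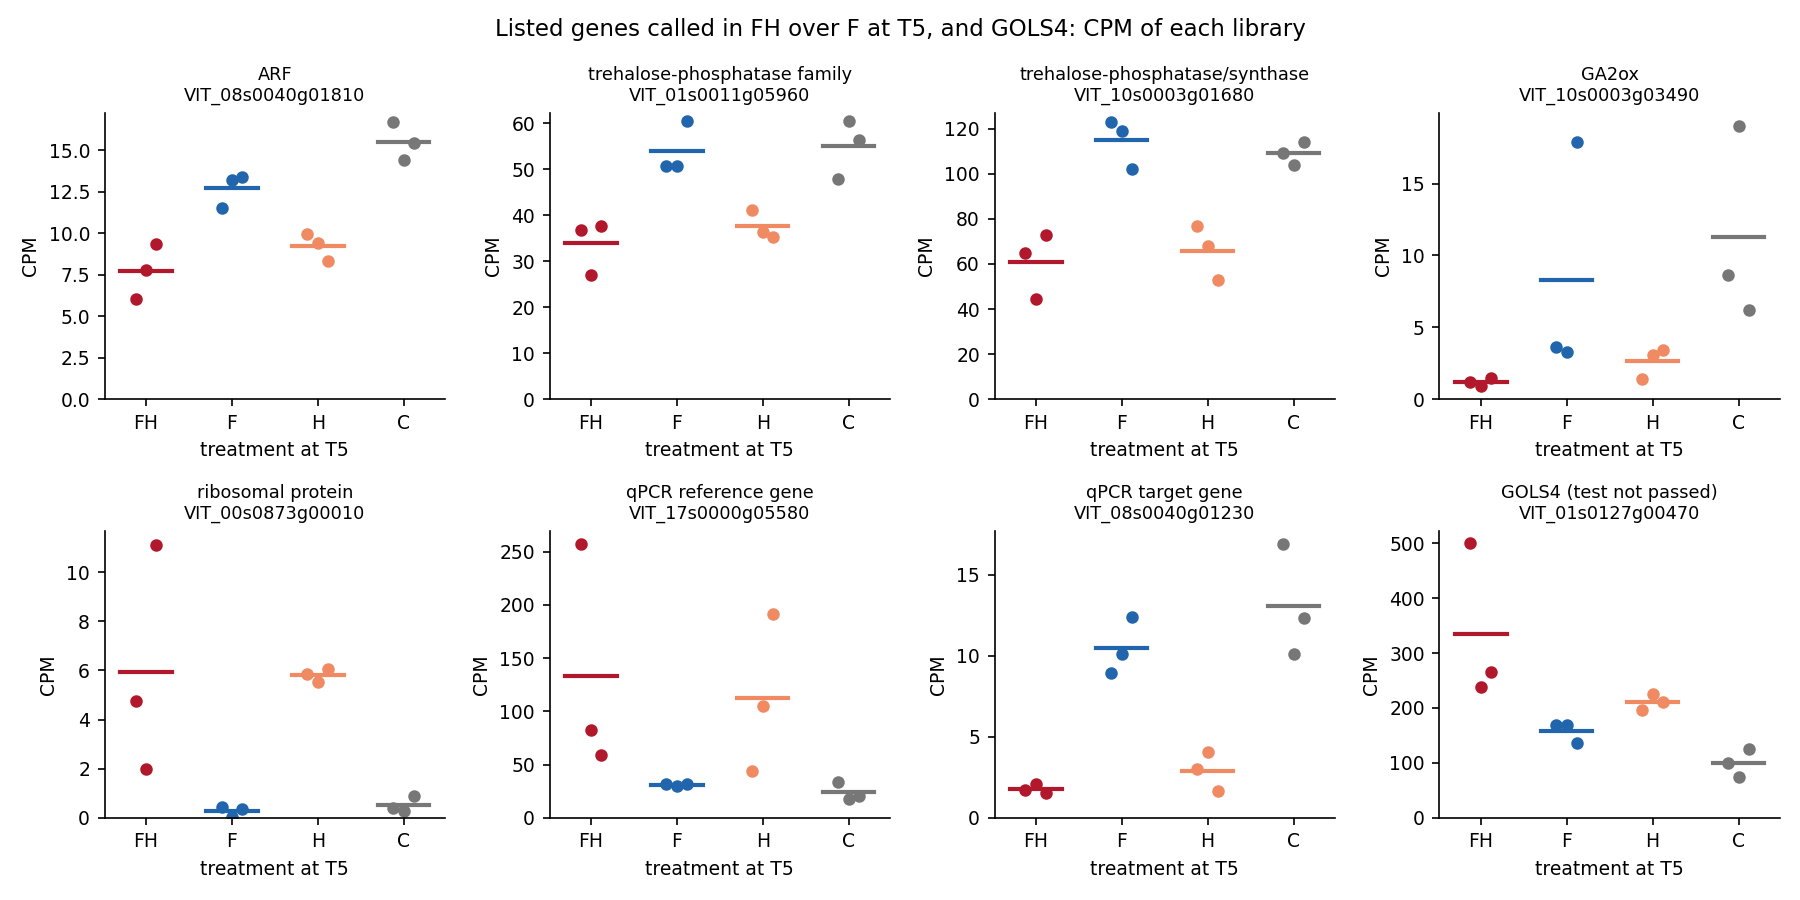
CPM (vertical axes, from 0) of the 7 listed genes called in FH over F at T5 and of GOLS4, which did not pass the test, for FH, F, H and C at T5 (horizontal axes). Points are libraries and bars are means of 3. The FH libraries of the ARF, trehalose, GA2ox and qPCR target genes all lie below those of F, and the GA2ox mean of F rests on 1 library at 17.9 CPM.

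Among the genes of sugar osmoprotectants, 2 of 5 tested genes were lower in FH and 0 were higher, with a median log2 change of -0.43. Over all genes tested, 6.47% were lower and 7% were higher, with a median of 0.04. The trehalose-phosphatase/synthase gene VIT_10s0003g01680, of the pathway that makes trehalose from trehalose 6-phosphate, had 64.9, 44.5 and 72.9 CPM in FH, against 123, 119 and 102 CPM in F. The groups did not overlap, and FH replicate 2 was the lowest. Its log2 change was -0.91 ± 0.25 (SE; edgeR adjusted p = 0.0071), and without FH replicate 2 it was -0.73 with an adjusted p of 0.098.

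The trehalose-phosphatase family gene VIT_01s0011g05960 had 36.9, 27.0 and 37.8 CPM in FH, against 50.8, 50.8 and 60.5 CPM in F. Here too every FH library was below every F library. The log2 change was -0.67 ± 0.24 (edgeR adjusted p = 0.04), and the call was lost with any library but FH replicate 3 left out, with adjusted p between 0.056 and 0.23, as well as with F replicates 1 and 2 summed (adjusted p = 0.062) and with the replicate number as a block (adjusted p = 0.063).

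The trehalose phosphate synthase gene VIT_01s0026g00280 had 128, 80.4 and 151 CPM in FH, against 154, 158 and 172 CPM in F, and did not pass (log2 -0.43 ± 0.42, adjusted p = 0.54, edgeR). A further trehalose-phosphatase/synthase gene, VIT_17s0000g08010, had 8.47, 6.14 and 11.2 CPM in FH, against 9.77, 9.57 and 13.8 CPM in F. These groups overlapped (log2 -0.36 ± 0.50, adjusted p = 0.68, edgeR). GOLS4 (VIT_01s0127g00470), a galactinol synthase of the raffinose pathway, pointed the other way. It had 500.2, 238 and 264.8 CPM in FH, against 169.1, 169.4 and 135.8 CPM in F. All FH libraries were above those of F, with FH replicate 1 far above the others, and the log2 difference of 1.08 ± 0.45 had an adjusted p of 0.085 (edgeR). With the 6 libraries of these groups alone in the model, the adjusted p was 0.036.

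Of 18 auxin signaling and transport genes, 1 was lower and 0 were higher in FH, where 6.47% of all genes tested were lower and 7% higher. Among the 18, 13 had a negative log2 value, with a median of -0.47 against 0.04 over all genes tested. The ARF gene VIT_08s0040g01810, of the family of transcription factors that carry auxin responses, had 6.03, 7.78 and 9.36 CPM in FH, against 11.5, 13.2 and 13.4 CPM in F. The groups did not overlap, and its log2 change was -0.71 ± 0.21 (edgeR adjusted p = 0.011). The call was lost without FH replicate 1 (-0.56, adjusted p = 0.087) and without FH replicate 2 (-0.72, adjusted p = 0.053).

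Another ARF gene, VIT_15s0046g00290, had 0.553, 3.98 and 2.98 CPM in FH, against 6.57, 6.30 and 12.2 CPM in F. Its libraries did not overlap either, but they spread widely, and the log2 difference of -1.73 ± 0.85 had an adjusted p of 0.16 (edgeR). The auxin-linked gene VIT_15s0046g01280 had 83.4, 102 and 106 CPM in FH and 127, 121 and 156 CPM in F, and its log2 value of -0.47 ± 0.15 passed the adjusted p (0.019, edgeR) but not the fold. The Aux/IAA gene VIT_18s0001g08090, of the repressors that auxin removes, had 92.8, 89.4 and 94.9 CPM in FH and 70.8, 70.3 and 66.3 CPM in F. Its groups lay apart with little spread, and the log2 value of 0.42 ± 0.24 had an adjusted p of 0.24 (edgeR). The SE rests on the spread over all groups of the series, and this gene spread more elsewhere, as in C at T2 (221, 110 and 110 CPM).

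Of 3 tested genes of gibberellin metabolism, 1 was lower in FH, where 6.47% of all genes tested were lower. This was the GA2ox gene VIT_10s0003g03490, of the oxidases that inactivate gibberellins. It had 1.20, 0.951 and 1.47 CPM in FH, against 3.66, 3.26 and 17.9 CPM in F. The groups did not overlap, but F replicate 3 stood far above the other F libraries, and the log2 change of -2.78 ± 0.94 (edgeR adjusted p = 0.029) was -1.52 with an adjusted p of 0.34 without it. Leaving out any FH library also ended the call, with adjusted p of 0.079, 0.13 and 0.056 for replicates 1, 2 and 3.

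Genes of abscisic acid metabolism and of ethylene and salicylic acid synthesis, and the 1 heat shock gene listed, gave no call. Over all genes tested 13.5% were called, and at that share lists this short may hold none, which does not show that these genes were unchanged. Of the 5 genes of abscisic acid metabolism, 0 passed by edgeR or DESeq2 and 0 had an unadjusted p below 0.05 (median log2 -0.42). NCED3 (VIT_19s0093g00550), of the step that commits carotenoids to abscisic acid, had 0.875, 0.432 and 2.71 CPM in FH, against 4.23, 4.30 and 5.67 CPM in F. Its log2 value was -1.83 ± 1.06 (adjusted p = 0.24, edgeR), and 0.045 was the adjusted p with the 6 libraries alone in the model. NCED4 (VIT_02s0087g00930), of the same family, had 55.2, 67.6 and 90.7 CPM in FH, against 40.2, 42.7 and 59.8 CPM in F. These groups overlapped, and the log2 value was 0.58 ± 0.57 (adjusted p = 0.54, edgeR).

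HSP101 (VIT_17s0000g07190), the only heat shock gene in the lists and a chaperone that dissolves heat-damaged protein aggregates, had 138, 50.6 and 124 CPM in FH, against 84.8, 80.3 and 61.1 CPM in F. FH replicate 2 lay below all F libraries and the other FH libraries above them, and the log2 value was 0.46 ± 0.99 (adjusted p = 0.81, edgeR). The spread of this gene was larger still at T4, with 336, 2180 and 30.9 CPM in FH and 532, 257 and 540 CPM in F. Of the 5 ethylene synthesis genes and the 1 gene of salicylic acid synthesis, 0 were called by edgeR or DESeq2 and 0 had an unadjusted p below 0.05. Over all genes tested, edgeR called 13.5%. Of the 6 genes of amino acid and chlorogenic acid synthesis, 0 were called by either tool and 1 had an unadjusted p below 0.05. This was the P5CR gene VIT_08s0007g05600, of the last step of proline synthesis. It had 21.9, 22.6 and 20.2 CPM in FH and 17.3, 16.3 and 15.0 CPM in F, a log2 value of 0.42 ± 0.13 that passed the adjusted p (0.014, edgeR) and fell short of the fold.

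The lists that the study drew from its network analysis held 1 call. Of the 5 tested genes of the 2-IP (a cytokinin) subnetwork 1 was higher, where 7% of all genes tested were higher. The study chose this list for its correlation with the hormone over these samples and singled out several of its genes as high in the berries of H and FH, so that their values at T5 are a description and no independent evidence. The called gene, annotated as a ribosomal protein (VIT_00s0873g00010), had 4.74, 1.99 and 11.1 CPM in FH, against 0.423, 0.0435 and 0.355 CPM in F. These are 103, 46 and 242 counts in FH and 9, 1 and 8 counts in F. The groups were far apart, and the log2 change was 4.42 ± 0.66 (edgeR adjusted p = 9.4e-06), between 3.60 and 4.86 with any library left out, with every adjusted p at or under 0.00027. The same subnetwork held a wound-responsive gene, VIT_12s0057g00110, with 23.8, 35.2 and 32.8 CPM in FH and 14.7, 16.3 and 12.6 CPM in F (log2 1.07 ± 0.79, adjusted p = 0.38, edgeR), and a senescence-associated gene, VIT_01s0146g00260, with 2057, 2770 and 2117 CPM in FH and 1816, 1806 and 1320 CPM in F (log2 0.49 ± 0.71, adjusted p = 0.7, edgeR). Neither passed, though the libraries of FH lay above those of F in both, as they did in 23.6% of all genes tested.

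The subnetworks that the study tied to abscisic acid and salicylic acid held no call by edgeR, where 13.5% of all genes tested were called. Of the 7 tested genes of the ABA subnetwork 0 were called by edgeR or DESeq2 and 0 had an unadjusted p below 0.05, with a median log2 value of -0.36. The 5 lists of the salicylic acid subnetwork overlap, and all 12 genes of the response to endogenous stimulus are also in the response to stimulus. They hold 44 distinct tested genes, of which 40 had a mean under 1 CPM in both FH and F, so that most rest on very few reads. Of the 44, 0 were called by edgeR, 4 had an unadjusted p below 0.05 (3 higher and 1 lower in FH), and DESeq2 called 2 higher and 0 lower. In H over C at T5, 6 of the 44 were called higher and 0 lower (edgeR), where 7.68% of all genes tested were higher. The pectin lyase VIT_07s0005g02090, of the enzymes that break down pectin, had 0.0461 CPM in FH replicate 1 and 0 in the other 5 libraries. DEWAX (VIT_16s0013g01000), known in Arabidopsis as a repressor of wax synthesis, had 1.06, 0.173 and 0.413 CPM in FH, against 0.141, 0.304 and 0.488 CPM in F. These groups overlapped. Neither gene was called by edgeR or DESeq2 or had an unadjusted p below 0.05.

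The qPCR genes printed above moved in opposite directions. The reference gene VIT_17s0000g05580 had 257, 82.2 and 59.4 CPM in FH, against 31.8, 29.5 and 31.6 CPM in F. The F libraries lay close together, and those of FH spread widely above them, with FH replicate 1 the highest. The log2 change was 2.10 ± 0.63 (edgeR adjusted p = 0.013), and without FH replicate 1 it was 1.19 with an adjusted p of 0.22. In the unflooded vines it had 44.4, 105 and 191 CPM in H, against 33.4, 18.1 and 20.1 CPM in C, and it was called there too (log2 2.25, adjusted p = 0.01, edgeR). Of the other 4 reference genes none was called in FH over F (edgeR), with log2 values between -0.07 and 0.40. In H over C, 3 of the 5 reference genes were called higher, where 7.68% of all genes tested were higher. The others called were VIT_06s0004g03310 (log2 0.64, adjusted p = 0.0081, edgeR) and VIT_10s0003g00990 (log2 0.59, adjusted p = 0.018, edgeR). The target gene VIT_08s0040g01230 had 1.70, 2.08 and 1.56 CPM in FH, against 8.92, 10.1 and 12.4 CPM in F. All FH libraries were at the same low level, and the log2 change was -2.55 ± 0.56 (edgeR adjusted p = 0.00085), between -2.68 and -2.41 with any library left out. It was the 1 call among 13 tested target genes, where 13.5% of all genes tested were called.

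Most of the strongest DEGs bear no annotation in the sources used here. By size of the change among those with no overlap and at least 5 CPM in the higher group, the leading higher genes were VIT_05s0049g00550 and VIT_19s0090g01340. VIT_05s0049g00550 had 187, 201 and 129 CPM in FH, against 18.8, 20.3 and 14.4 CPM in F. It was about an order of magnitude higher in every FH library, with a log2 change of 3.27 ± 0.59 (edgeR adjusted p = 0.00011), and it was also called at T4 (2.71 ± 0.57, adjusted p = 0.023). VIT_19s0090g01340 had 1140, 1170 and 691 CPM in FH, against 184, 204 and 92.5 CPM in F. Its log2 change of 2.64 ± 0.83 (edgeR adjusted p = 0.02) lost the call without FH replicate 2 (adjusted p = 0.07). The adjusted p was 0.055 with F replicate 1 left out, 0.1 with F replicate 3 left out and 0.05 with F replicates 1 and 2 summed.

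The leading lower genes were VIT_08s0007g02380 and VIT_19s0090g01650. VIT_08s0007g02380 had 1.06, 2.20 and 1.10 CPM in FH, against 7.89, 8.17 and 8.15 CPM in F. With a log2 change of -2.46 ± 0.27 it had an adjusted p of 6.3e-08 (edgeR), and its adjusted p stayed at or under 8.4e-06 with any library left out. VIT_19s0090g01650 had 2.95, 4.84 and 1.61 CPM in FH, against 16.9, 15.3 and 14.9 CPM in F, a log2 change of -2.32 ± 0.56 (edgeR adjusted p = 0.0022). It was not called in H over C at T5 (-0.92, adjusted p = 0.24, edgeR). The others were called there in the same direction, VIT_05s0049g00550 with log2 3.93, VIT_19s0090g01340 with 3.02 and VIT_08s0007g02380 with -1.98. In FH over F at T3 the leading higher genes were called (log2 1.95 and 4.41), and the leading lower ones were not.

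**Figure D2:**
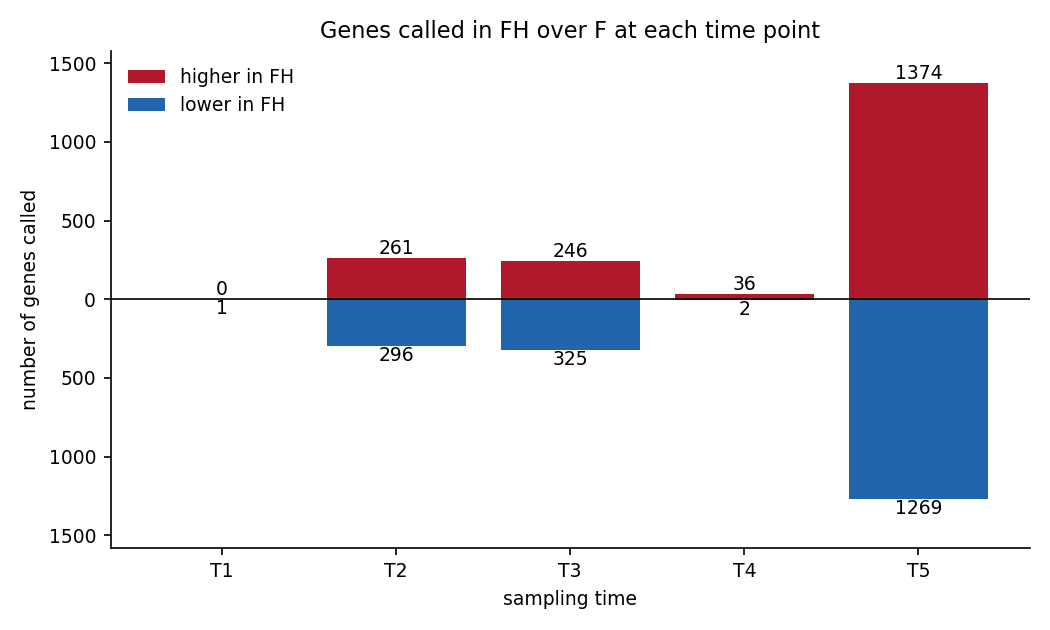
Number of genes called higher (upwards) or lower (downwards) in FH than in F at each sampling time from T1 to T5 (horizontal axis), each from 3 libraries per group. T1 has 0 higher and 1 lower gene, T2 has 261 and 296, T3 has 246 and 325, T4 has 36 and 2, and T5 has 1374 and 1269.

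The contrast between FH and F did not fade steadily towards harvest. It gave 0 higher (0%) and 1 lower (0.0051%) gene at T1, when the soil of stressed vines had dried and the warming began (edgeR; 2286 genes had an unadjusted p below 0.05). At T2 it gave 261 higher (1.33%) and 296 lower (1.51%) genes, and at T3, the end of the heatwave, 246 higher (1.25%) and 325 lower (1.66%) genes. At T4 only 36 were higher (0.183%) and 2 were lower (0.0102%), 4 days before the 2643 DEGs of T5. FH replicate 2 of T4 stood furthest from its group in the series. The chi-square over its degrees of freedom was 293 and 282 to FH replicates 1 and 3, against 147 for the next pair of replicates. The count at T4 was unstable. It was 143 with DESeq2, 0 with the T4 libraries of FH and F alone in the model (531 at an unadjusted p below 0.05). With FH replicate 2 left out it was also 0 (1475 unadjusted), as with either of the first F replicates left out (1256 and 1694). It was 9 when the third F library was dropped, 121 when FH replicate 3 was dropped and 377 when FH replicate 1 was dropped.

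The genes of T5 held few calls at T4, where few genes were called at all. Of the 1374 higher DEGs, 4 (0.291%) were called higher at T4, against 0.183% of all genes tested, and 0 lower. Of the 1269 lower DEGs, 1 (0.0788%) was called lower at T4, against 0.0102% of all genes tested, and 0 higher. The median log2 value at T4 was 0.08 for the higher and -0.17 for the lower DEGs, against 0.01 over all genes tested. It was positive in 63.3% of the higher and 21.2% of the lower DEGs, against 52.1% of all genes tested. The median SE of the log2 change was 0.284 at T4 and at T5 alike, since all libraries share an estimate of the spread. The replicates of the T4 libraries spread more, with a median SD of log2(CPM + 4) of 0.221 in FH and 0.14 in F at T4, and of 0.141 in FH and 0.072 in F at T5.

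The difference between T5 and T4 was itself tested. FH over F was higher at T5 than at T4 in 417 genes (2.12%) and lower in 289 genes (1.47%, edgeR). With RLE scaling, the split was 362 higher and 382 lower. Without FH replicate 2 of T5 60 genes were higher and 30 lower, with F replicates 1 and 2 of T5 summed 212 and 152, and with the 12 libraries of these groups alone in the model 0 were called (2354 had an unadjusted p below 0.05), while DESeq2 called 1145. Of the DEGs of T5, 356 of the higher and 194 of the lower ones were among the calls of this test. The test contains the T5 difference that chose these DEGs, so that this overlap is partly fixed in advance and is a description. The trehalose-phosphatase/synthase gene VIT_10s0003g01680 was one of these, with a difference of -1.26 ± 0.35 (edgeR adjusted p = 0.035). At T4 it had 86.0, 110 and 99.6 CPM in FH, against 79.3, 85.9 and 67.8 CPM in F, so that FH lay above F there and below F at harvest. The ribosomal protein gene VIT_00s0873g00010 was another, with 0.824, 1.23 and 1.43 CPM in FH and 0.708, 0.641 and 0.745 CPM in F at T4, and a difference of 3.69 ± 0.87 (edgeR adjusted p = 0.014).

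**Figure D3:**
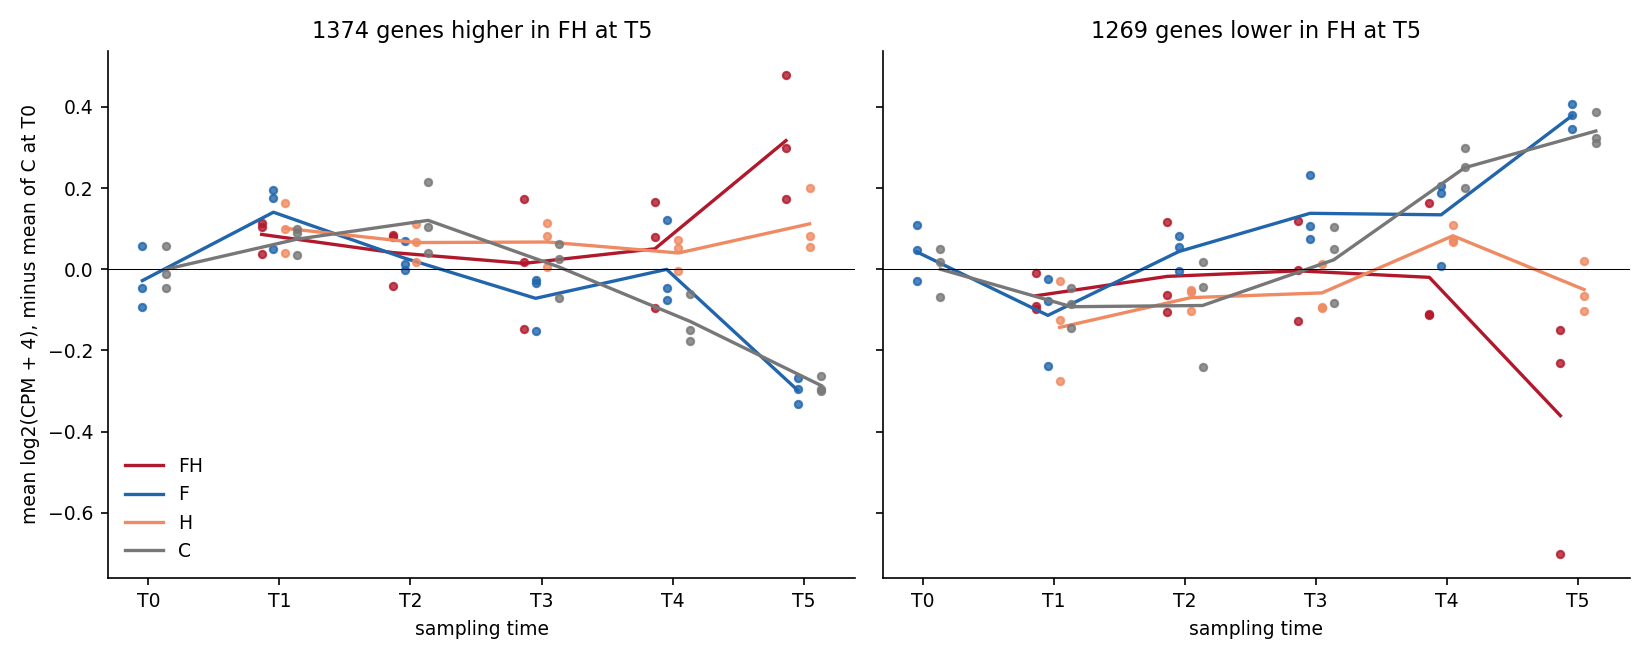
Mean log2(CPM + 4) over the DEGs of FH over F at T5 (vertical axis, minus the mean of C at T0) from T0 to T5 (horizontal axis), for the 1374 higher DEGs on the left and the 1269 lower DEGs on the right. Points are libraries and lines join group means of FH, F, H and C. F and C end close together at T5, and H lies between them and FH. The T5 values of FH and F are those that chose the genes, so that the place of H is a description.

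The same genes were followed through all groups as a mean of log2(CPM + 4) relative to C at T0. The higher DEGs stood at 0.05 ± 0.13 in FH and 0.00 ± 0.11 in F at T4 (SD, n = 3), and at 0.32 ± 0.15 in FH and -0.30 ± 0.03 in F at T5. The last pair of values chose the genes and is given as a description. In the unflooded vines, which had no part in that choice, they stood at 0.04 ± 0.04 in H and -0.13 ± 0.06 in C at T4, and at 0.11 ± 0.08 in H and -0.29 ± 0.02 in C at T5. At T5 C lay close to F, and H lay between F and FH. The choice of the genes drew FH and F apart, so that the place of H between them is a description.

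The lower DEGs mirrored this. They stood at -0.02 ± 0.16 in FH and 0.13 ± 0.11 in F at T4, and at -0.36 ± 0.30 in FH and 0.38 ± 0.03 in F at T5, with FH replicate 2 at -0.70 and the other FH libraries at -0.23 and -0.15. In the unflooded vines they stood at 0.08 ± 0.02 in H and 0.25 ± 0.05 in C at T4, and at -0.05 ± 0.06 in H and 0.34 ± 0.04 in C at T5.

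The DEGs of FH over F were then read against the change of C during ripening, in which C at T5 over C at T0 gave 4922 higher (25.1%) and 6179 lower (31.5%) genes. These C libraries are in neither FH nor F. Of the 1374 genes higher in FH, 520 (37.8%) were lower and 204 (14.8%) were higher in C at T5 than at T0. Of the 1269 genes lower in FH, 170 (13.4%) were lower and 545 (42.9%) were higher in C at T5 than at T0. In the last days before harvest the change of C was smaller, with 120 higher (0.611%) and 644 lower (3.28%) genes at T5 over T4. Of the genes higher in FH, 98 were among the 644 lower ones and 2 among the 120 higher ones. Of the genes lower in FH, 17 were among the 644 lower ones and 18 among the 120 higher ones.

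The order of these shares was the same without the libraries in doubt, although the share of higher DEGs that were higher in C moved by over 1.5 times without FH replicate 2. Without it, 44.3% of the higher DEGs were lower and 8.9% were higher in C, and of the lower DEGs 12.6% were lower and 46.4% were higher. With F replicates 1 and 2 summed, 34.8% of the higher DEGs were lower and 14.9% were higher in C, and of the lower DEGs 11.4% were lower and 44.9% were higher. Calls in FH over F varied with the level of a gene, as given above, and the part of this in the shares was not tested.

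**Figure D4:**
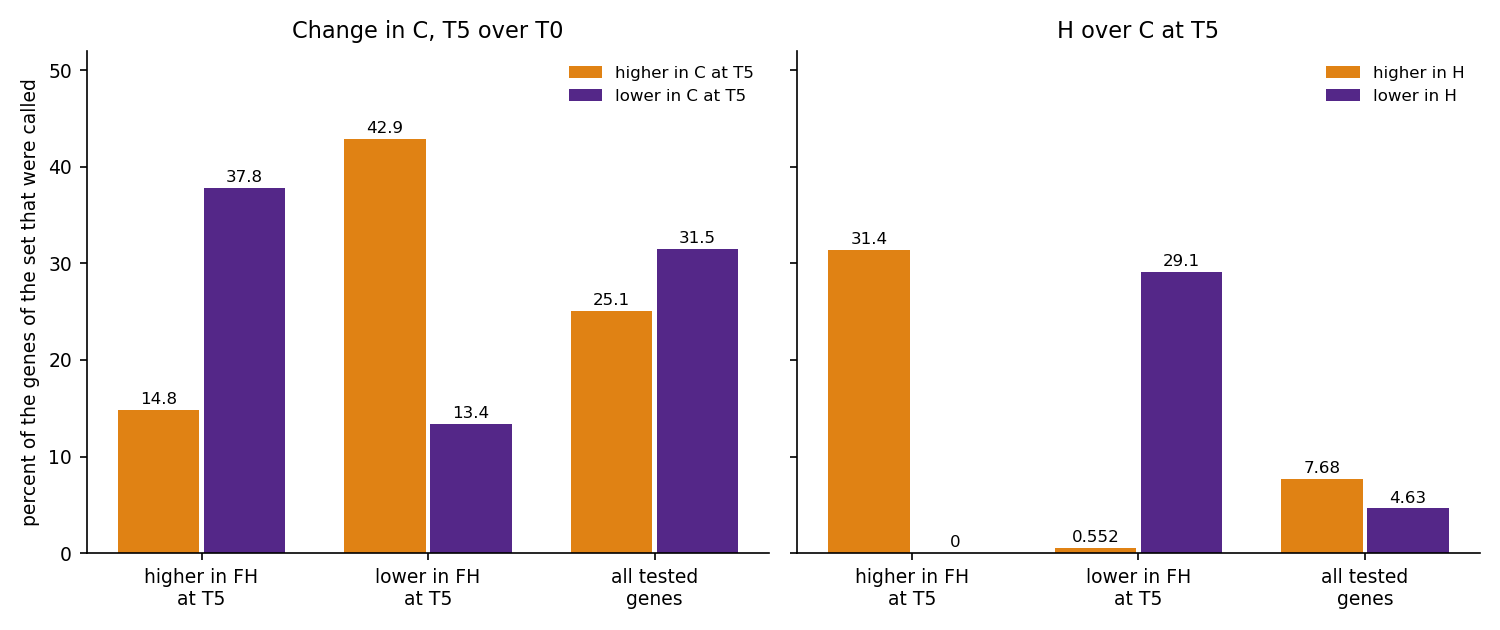
Percent of genes called (vertical axes, from 0) in C at T5 over C at T0 on the left and in H over C at T5 on the right, among the genes higher in FH at T5, lower in FH at T5, and all genes tested (horizontal axes). Of the genes lower in FH, 42.9% were higher in C at T5 than at T0, against 25.1% of all genes tested.

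A ripening score placed each library on the course of the controls. It projects log2(CPM + 4) of 11101 genes, those called in C at T5 over T0, on the difference between these groups, and is scaled to average 0 in the first and 1 in the last C samples. The FH libraries scored 0.902, 0.926 and 0.929 at harvest, and the F libraries 0.971, 0.973 and 0.984. All FH libraries lay below all F libraries, by 0.057 on average (p = 0.1 by a two-sided exact permutation test, which with 3 against 3 cannot go lower). Leaving out any library gave a difference between -0.062 and -0.048. At T4 the scores were 0.886, 0.692 and 0.879 in FH and 0.896, 0.859 and 0.750 in F, which overlapped (difference -0.016, exact permutation p = 0.8). At harvest in the unflooded vines they were 0.934, 0.902 and 0.783 in H and 0.998, 0.990 and 1.011 in C (difference -0.127, exact permutation p = 0.1). These C libraries chose the genes and set the value of 1, so that this difference and its p are a description and no independent test. For comparison, the C libraries of T4 scored 0.878, 0.886 and 0.926.

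**Figure D5:**
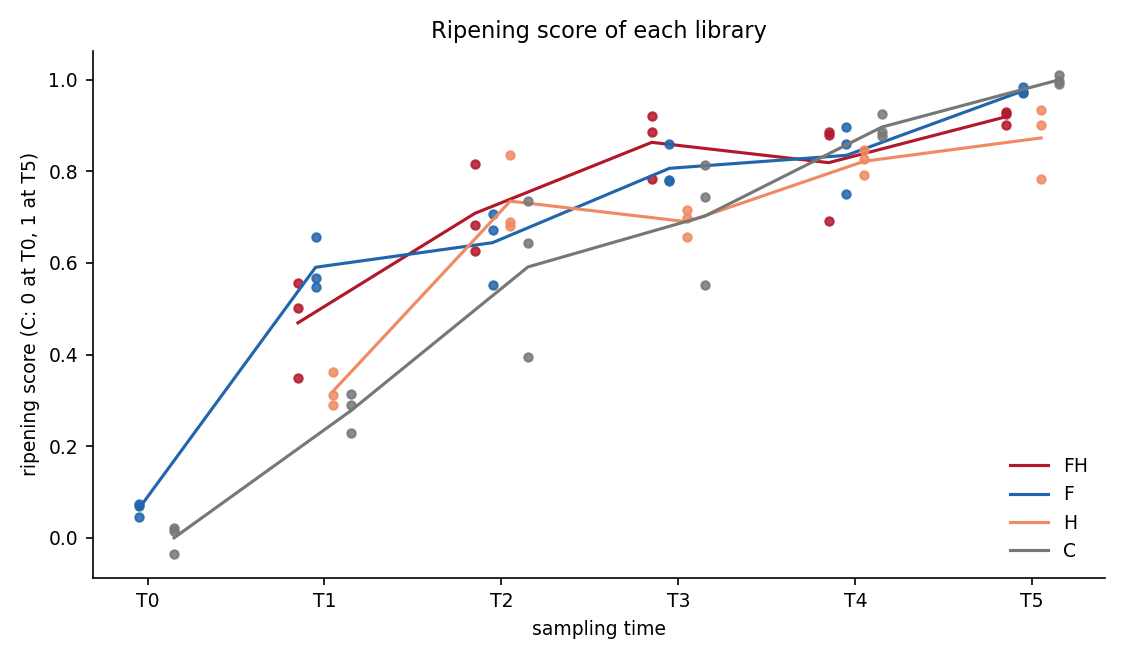
Ripening score of each library (vertical axis, no unit, 0 and 1 set by the mean of C at T0 and T5) from T0 to T5 (horizontal axis), for FH, F, H and C, with lines joining group means. At T5 the FH libraries lie between 0.902 and 0.929, below the F libraries, which lie between 0.971 and 0.984.

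The same summer stress without a flood was measured in other libraries, H over C at T5, with 1508 higher (7.68%) and 908 lower (4.63%) genes. Of the genes higher in FH, 432 were also higher in H, which is 31.4% of the FH list and 28.6% of the H list, and 0 were lower (edgeR). Of the genes lower in FH, 369 were also lower in H, which is 29.1% of the FH list and 40.6% of the H list, and 7 were higher. The median log2 value of H over C was 0.49 over the genes higher in FH and -0.49 over those lower in FH, against 0.02 over all genes tested. Without FH replicate 2, 46.2% of the higher DEGs were also higher in H and 43.5% of the lower ones were also lower. The groups of flooded and unflooded vines with the summer stress shared a tunnel, so that the shared calls cannot be told apart from an effect of the tunnel.

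Of the 7 listed genes called in FH over F, 5 were called in H over C as well, all in the same direction. Over all DEGs of FH over F, 31.4% of the higher and 29.1% of the lower ones were called the same way in H over C. The 5 were the ARF gene VIT_08s0040g01810, the trehalose-phosphatase/synthase gene VIT_10s0003g01680, the ribosomal protein gene VIT_00s0873g00010 and both qPCR genes. The study had chosen the ribosomal protein gene for being high in both H and FH. The ribosomal protein gene had 5.84, 5.51 and 6.06 CPM in H, against 0.394, 0.285 and 0.883 CPM in C, with a log2 change of 3.47 (edgeR adjusted p = 0.00011). The ARF gene had 9.94, 9.38 and 8.30 CPM in H, against 16.7, 14.4 and 15.4 CPM in C, with a log2 change of -0.75 (edgeR adjusted p = 0.0092). The trehalose-phosphatase/synthase gene VIT_10s0003g01680 had 76.9, 67.8 and 52.7 CPM in H, against 109, 104 and 114 CPM in C, with a log2 change of -0.73 (edgeR adjusted p = 0.036). In each of these genes the stressed libraries lay entirely on one side of the unstressed ones, with and without the flood. Of all genes tested, 23.6% had FH entirely above F and 19.9% entirely below, and the share for H and C was not counted.

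Whether flooded and unflooded vines differed in the change with summer stress was tested gene by gene. FH over F minus H over C was higher in 10 genes (0.051%) and lower in 92 genes (0.469%), and 0 of the listed genes were among them (edgeR). Of the 92, 62 were called higher in H over C, where 7.68% of all genes tested were. In FH over F, 23 were called lower, where 6.47% of all genes tested were. The median log2 value of the 92 was -0.43 in FH over F and 0.91 in H over C. The tested difference contains both contrasts, so that these values are partly fixed in advance and are a description. The count was 0 without FH replicate 2 (1541 at an unadjusted p below 0.05) or without H replicate 3 (1383), 16 with F replicates 1 and 2 summed, 23 with the replicate number as a block and 364 with DESeq2. A difference in the response of flooded and unflooded vines was thus found in few genes and not in a stable number of them, which does not show that the responses were alike.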

How the data were processed

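Counts of uniquely mapping, stranded single-end reads per gene row were deposited by the authors for 66 libraries, without normalization. TopHat, Trimmomatic 0.39 and featureCounts are named in the submitters' processing notes, whereas the paper states that reads were not trimmed and were counted with Bedtools. Per the paper, a revised form of the Pinot Noir genome of Genoscope with a later annotation was used for mapping. Not given in the sources used here are the versions of TopHat and the read counter. Of 29688 rows, 4348 held no count, and 300 rows shared 149 gene IDs and were kept apart.

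Rows reaching 0.5 CPM in 3 or more libraries (19625) were fitted in R 4.3.3 with edgeR 4.0.16 (TMM, robust quasi-likelihood), with 1 mean per group for all 22 groups. Genes were called at a fold of 1.5 or more and an adjusted p (Benjamini-Hochberg) under 0.05. The SE of a log2 change is its size divided by the square root of the F statistic, with the spread estimated over all libraries. The alternatives were DESeq2 1.42.0, RLE scaling, no filter, only the groups compared, a replicate block, summed F replicates, a test against the fold, summed rows and leaving out each library. The test was also tested on simulated data. Figures were drawn in Python 3.11.15 with matplotlib 3.10.9.

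Library totals in the series ranged from 15927671 to 24150978. Genes with few reads, such as the 4166 tested genes under 1 CPM on average in FH and F at T5, are also limited by counting error. The p-values measure the spread between replicate libraries within 1 tunnel per treatment, estimated over all groups. Named genes are those the study names by ID, and, among genes with no annotation, at most 2 higher and 2 lower DEGs with the largest change, no overlap, and a mean of 5 CPM or more in the group where they are higher. The comparison, the lists and the rule were chosen with earlier results of these data known. Primer sequences were copied from the supplementary tables of the study.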

Additional observations from a re-analysis of the deposited data

Results flagged for a closer look

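For 4 named genes, FH over F differed between T5 and T4 by a test of the difference itself (edgeR, adjusted over all genes tested). For the trehalose-phosphatase/synthase gene VIT_10s0003g01680 the difference was -1.26 ± 0.35 on the log2 scale (adjusted p = 0.035), with 64.9, 44.5 and 72.9 CPM in FH and 123, 119 and 102 CPM in F at T5. For the ribosomal protein gene VIT_00s0873g00010 it was 3.69 ± 0.87 (adjusted p = 0.014), in a gene that the study had chosen on these samples. For VIT_08s0007g02380, which has no annotation in the sources used here, it was -2.13 ± 0.36 (adjusted p = 0.002), with 6.25, 6.65 and 6.34 CPM in FH and 9.39, 6.92 and 7.94 CPM in F at T4. This gene was named for its large change at T5, which is part of the tested difference, so that the value is no independent evidence.

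VIT_00s0131g00010, listed by the study under response to stimulus in the salicylic acid subnetwork, had a difference of 3.60 ± 1.09 (adjusted p = 0.049). It was not called in FH over F at T5 (log2 1.98 ± 0.76, adjusted p = 0.06) and rests on few reads, 5, 13 and 7 counts in FH and 2, 2 and 2 counts in F at T5, and 2, 1 and 3 counts in FH and 5, 7 and 8 counts in F at T4.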

How the results depend on the processing

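The DEGs of FH over F at T5 numbered 2139 to 2837 under the alternatives that kept all reads, other than the test against a fold of 1.5 (27). Leaving out libraries gave 1049 (without FH replicate 2) to 3134. The count for H over C at T5 was 347 with the test against the fold and 1023 (without H replicate 3) to 2927 with libraries left out. At T4, FH over F gave 8 with the test against the fold, 0 with the groups compared alone, 143 with DESeq2 and 0 to 377 with libraries left out. FH over F at T5 against T4 gave 470 without a filter, 0 with the test against the fold and with the groups compared alone, 364 with F replicates summed, 1145 with DESeq2, and 90 to 1390 with libraries left out. Leaving out FH replicate 2 or 3, F replicate 1 or 3 of T5, or FH replicate 1 or 3 and F replicate 1 or 3 of T4 moved that count by over 1.5 times, to 90, 1390, 312, 184, 405, 1254, 337 and 276. FH over F against H over C gave 55 without a filter, 1 with the test against the fold, 34 with the groups compared alone, 16 with F replicates summed, 364 with DESeq2 and 0 to 302 with libraries left out, each of the 12 of which moved it by over 1.5 times. The cause of these shifts was not tested. The ripening score difference lay between -0.062 and -0.048 under all its alternatives.

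The replicate numbers did not pair the samples, since same-numbered FH and F libraries at T5 deviated from their group means with correlations of 0.14, -0.06 and -0.15. With the replicate block, FH over F gave 2453 DEGs at T5 and 1 at T4, the difference between T5 and T4 gave 493, H over C gave 2137 and the difference between flooded and unflooded vines gave 23. Of 322 refits of the named genes, 291 kept the side of the threshold, 28 lost the call, 3 gained it and 0 reversed it. The summed F replicates, read beside the shares and listed genes of the report, and these shares without FH replicate 2, were chosen after seeing the data.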
